A study of Macaca mulatta with 24 samples.

Results

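The data describe 20 regions of the rhesus macaque genome whose DNA was methylated at an intermediate level, between 35% and 65%, and whose level differed little from animal to animal. Each region is a tile of 1 kb. A tile was taken when it lay on chromosomes 1 to 20, held at least 8 measured CpG rows, had a mean level of at least 35% and under 65%, had a standard deviation (SD) of its mean over the 24 animals under 5 percentage points, and had at least 80% of its CpGs at a mean level between 25% and 75%. Of 163687 tiles with a measured CpG, 152858 lay on those chromosomes and 27985 of these had 8 or more rows. Of these, 2107 were at an intermediate level, 206 of the 2107 had an SD under 5 points, and 20 of the 206 also met the condition on the single CpGs. The tiles were thus chosen by their level, its spread over animals and the share of their CpGs at a middle level, and these values are given as a description with no test. The tiles were proposed as imprint-like, and the levels of their single CpGs are given beside that label.

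Methylation was measured in visceral (omental) white adipose tissue (WAT) of 24 female rhesus macaques, labelled as 4 years old (the study's methods give an older age at biopsy), by reduced-representation bisulfite sequencing, in which DNA is cut with MspI at CCGG and unmethylated cytosines are converted. The 4 groups held 6 animals each. Group C received cholesterol implants and monkey chow, group T received testosterone implants and chow, group WSD received cholesterol implants and a high-fat western-style diet, and group T+WSD received testosterone implants and that diet, for 3 years in every group. All 24 animals thus carried an implant, and the tissue was a biopsy that holds adipocytes together with the other cells of the fat pad, so a percentage is an average over cell types. Numbers in the labels ran from 1 to 12 over C and T+WSD and from 13 to 24 over T and WSD, so the comparisons of T or WSD with C cannot be told apart from anything that differed between those number series. The interaction sets C and T+WSD against T and WSD, which is exactly one series against the other, so it cannot be told apart from it either.

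Most CpGs of a mammalian genome are either largely methylated or, in CpG-rich promoters, largely unmethylated. A level near the middle can arise in several ways. At imprinted control regions the copy from one parent is methylated and the other is not, in every cell and in every animal, and neighbouring CpGs on one copy share one state. On the X chromosome of females, many CpG-rich promoters are methylated on the inactive copy alone. A middle level can also be an average over cell types, over animals that carry different alleles, or over cells that each have methylated some CpGs of the region and not others. Because each value here is a percentage for one CpG in one animal, the states of single reads and of the parental copies were not analysed here.

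The tiles lay on 12 of the 20 chromosomes, with 4 on chromosome 3, 3 each on chromosomes 1 and 14, and 2 on chromosome 6. They held 300 CpG rows in all, from 8 to 50 a tile with a median of 11.5, and 19 of the 20 had at least 8 separate CpGs once rows on the 2 strands of a CpG were counted once. The rows of a tile spanned a median of 350 bp. No tile adjoined another. Coordinates are those of rheMac8, the build of the deposited values. Which genes, exons or promoters the tiles fall in, and their base sequences, were not analysed here, since no genome or annotation of that build was used.

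The region with most rows was chr14:59508001-59509000, with 50 CpG rows and a level of 50.7% (SD 4.74 over 24 animals). In C its lowest, median and highest animals were at 41.6%, 48.7% and 53.2%, in T at 48.4%, 53.4% and 59.8%, in WSD at 47.7%, 51.6% and 53.3%, and in T+WSD at 43.6%, 50.0% and 61.0%. The 4 groups overlapped.

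The next was chr6:138951001-138952000, with 30 rows at 35.3% (SD 3.20), the lowest level and the smallest spread of the 20. Its C animals ran from 30.9% through a median of 33.6% to 37.1%, its T animals from 32.0% through 36.5% to 42.3%, its WSD animals from 32.7% through 34.7% to 37.2% and its T+WSD animals from 31.5% through 37.4% to 41.9%. Its groups overlapped as well, and its 6 rows outside the middle range put it exactly at the 80% bound.

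With 22 rows, chr3:34250001-34251000 was at 41.8% (SD 4.42). Its C animals lay between 40.6% and 46.9% with a median of 45.1%, its T animals between 37.3% and 46.9% with a median of 42.6%, its WSD animals between 33.5% and 47.4% with a median of 41.6%, and its T+WSD animals between 32.1% and 43.9% with a median of 38.1%. The C animals stood high within the range of the other groups, and all groups overlapped. The tile chr20:1050001-1051000 had 19 rows at 50.7% (SD 4.54) and ran from 36.9% in T 14 to 59.1% in C 2, the widest range of the 20 tiles at 22.2 points.

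Of the tiles with 16 rows, chr2:7108001-7109000 was at 53.8% (SD 4.90), from 46.6% in WSD 22 to 64.0% in T+WSD 12. The other, chr3:37226001-37227000, was at 59.6% (SD 4.49), from 45.1% in T 18 to 67.0% in T+WSD 7. In neither did one group hold all the high or all the low animals. Over all 20 tiles the lowest animal was at 28.2% (T 18, chr5:795001-796000) and the highest at 73.0% (T 16, chr4:167608001-167609000), and within a tile the highest animal exceeded the lowest by 11.4 to 22.2 points.

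**Figure D1:**
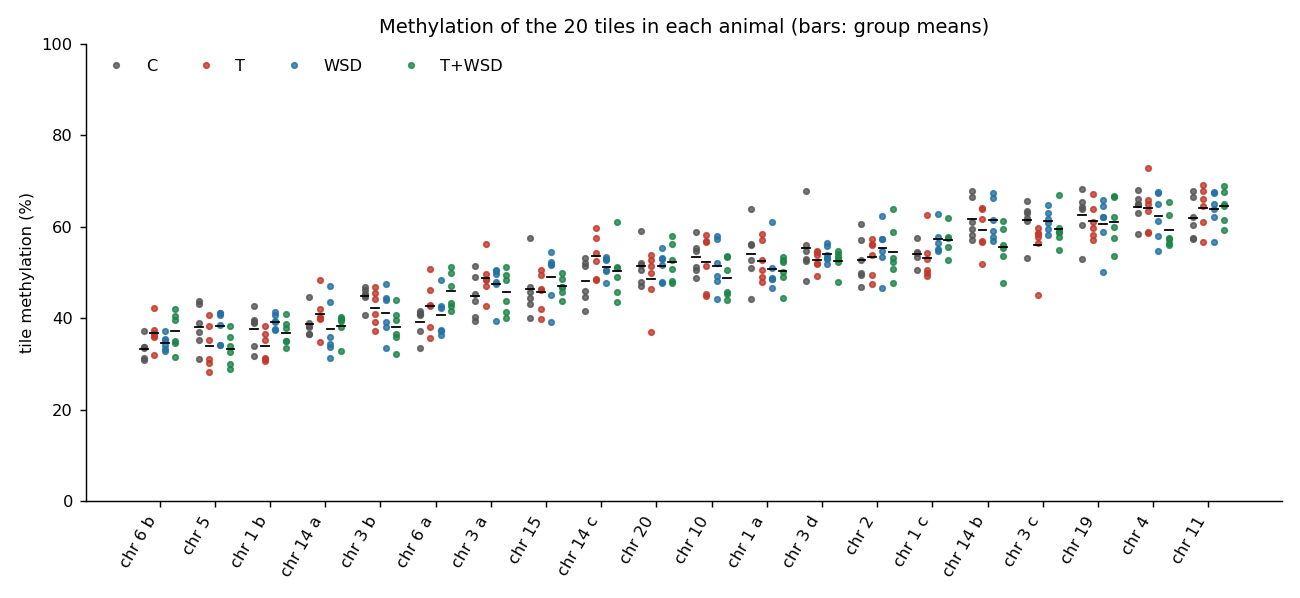
Methylation (%, vertical axis) of each of the 20 tiles (horizontal axis, ordered by level; letters count the tiles of a chromosome by position) in each animal. Each point is 1 animal, coloured by group (C, T, WSD, T+WSD), and black bars are group means. The points of a tile lie within 11.4 to 22.2 points of each other. The colours are mixed, except that every T+WSD point lies above every C point in chr6:138642001-138643000.

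The level of each animal over the tiles is a description, since the bound on the SD limits how far animals can differ in it. The mean over the 19 tiles with a value in every animal was 50.0% ± 1.36 for the C animals, 50.1% ± 1.07 for the WSD animals, 49.6% ± 2.12 for the T animals and 49.0% ± 0.919 for the T+WSD animals (SD, n = 6 each). T 18 was the lowest animal at 46.3% and C 1 the highest at 52.1%. T 18 and C 1 also lay near the ends of the range over all 27985 tiles, at 37.8% and 39.6%, where the 24 animals ran from 37.7% to 39.6%. C 1 was the highest animal in 4 of the 20 tiles and WSD 22 the lowest in 4. The tile chr1:121730001-121731000 (15 rows, 55.1%, SD 3.92) had a value in 21 animals and none in C 1, WSD 24 and T+WSD 10.

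The animals differed in how much of the genome was measured. Between 717554 (T 16) and 826713 of the 841143 CpG rows had a value in an animal, and T 16 lacked 14.7% of the CpGs in the 20 tiles. A missing CpG moves a tile mean where CpG levels are uneven. This mattered most in chr3:4953001-4954000 (11 rows, 46.7%), whose SD was 4.45 by the rule and 7.79 when each CpG was first set relative to its own mean. Read counts were not in the table used here, so depth above the coverage minimum set by the study is unknown and no interval for counting error was computed.

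Values close to the bounds were as follows. The tile nearest inside the bound on the SD was chr14:32044001-32045000 at 4.99 points, and the nearest outside was chr20:73856001-73857000 at 5.09 points. The lowest level inside was 35.3%, with no tile outside below it that met the other conditions. The highest level inside was 63.6% (chr11:132512001-132513000), and the nearest outside was 65.5% (chr4:73313001-73314000). The tile chr3:124249001-124250000 was among those with 8 rows, and chr7:158976001-158977000 fell outside with 7. A share of 78.6% of CpGs at a middle level kept out chr18:69400001-69401000.

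The low spread was uncommon among tiles built of middle-level CpGs. Of the 969 tiles at an intermediate level with at least 80% of their CpGs in the middle range, 20 (2.06%) had an SD under 5 points, another 51 had one between 5 and 6 points, and the median SD was 9.19 points. Of the 1138 at an intermediate level with fewer CpGs in the middle range, 186 (16.3%) had an SD under 5 points and the median was 7.34 points. The latter are tiles in which high and low CpGs average to a middle level.

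Within the 20 tiles, methylation was uneven from one CpG to the next. Neighbouring CpGs 2 to 30 bp apart differed by a median of 13.8 points in their means over animals (203 pairs, quartiles 5.73 and 25.2 points). In 70 of the pairs (34.5%) the step was over 20 points, and in 43 (21.2%) it was at most 5 points. Taken tile by tile, the median step was 13.4 points and ran from 2.12 points in chr14:32044001-32045000 to 32.0 points in chr2:7108001-7109000.

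The profile on chromosome 2 shows what such steps look like. At position 7108091 the mean level was 37.3%, and 15 bp on, at 7108106, it was 96.0%. The second CpG was the higher in 24 of 24 animals, by 49.3 to 67.2 points. The lowest CpG of the tile, at 7108116, was at 27.2%. The tile's level of 53.8% was therefore the mean of CpGs that ranged from 27.2% to 96.0%.

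In chr14:59508001-59509000 the level fell from 89.5% at position 59508191 to 39.8% at 59508212, lower in 24 of 24 animals by 29.8 to 64.0 points. Its CpGs ranged from 22.4% to 90.9%. In chr1:110210001-110211000 (10 rows, 36.9%), CpGs 6 bp apart were at 19.9% (110210507) and 61.2% (110210513), again with one order in 24 of 24 animals. In chr1:121730001-121731000 the level went from 92.4% at 121730164 to 38.2% at 121730192 in all 21 animals with a value. In chr15:42398001-42399000 (8 rows, 47.0%) it went from 85.8% to 52.4% within 9 bp, from 42398681 to 42398690, in 24 of 24 animals. Among the 20 tiles, the largest step kept its direction in every animal with both values in 17. The pairs were chosen by their means over these same animals, which favours one order, so the counts are a description.

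**Figure D2:**
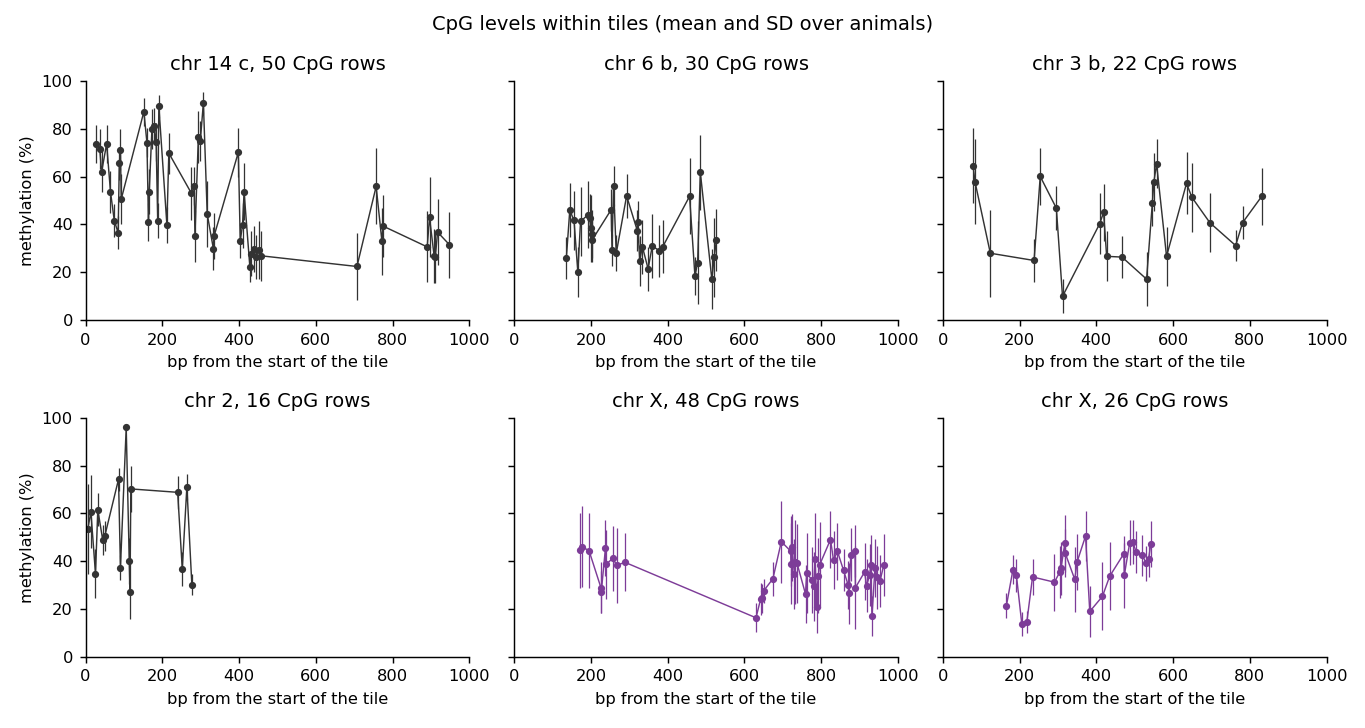
Mean methylation of each CpG (%, vertical axis; bars are SD over animals) along 4 of the 20 tiles (black, the 3 with most rows and the one with the largest median step) and 2 X chromosome tiles that met the same rule (purple, those with most rows), against distance from the start of the tile (bp). Lines join neighbouring CpGs; levels within the black tiles jump between high and low, reaching 96.0% beside 37.3% in the chromosome 2 tile, while the X chromosome tiles shown stay between 13.8% and 50.5%.

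Some of the 20 were more even. In chr14:32044001-32045000 the CpGs ranged from 42.6% to 73.4%, in chr19:4561001-4562000 (9 rows, 61.6%) from 48.0% to 72.9%, in chr3:37226001-37227000 from 43.8% to 82.4%, and in chr14:1834001-1835000 (10 rows, 38.9%) from 28.7% to 54.7%. Even in these the largest step between close neighbours was 19.3 to 23.8 points. In chr14:1834001-1835000 that step, 22.8 points, ran from 1834670 at 28.7% to 1834687 at 51.6%. The other strand of the latter CpG, at 1834688, was at 33.6%, so this step depends on the strand read. Over all 20 tiles, the lowest and highest CpG were 3.95% (795355, chr5:795001-796000) and 96.0%.

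The pattern of high and low CpGs along a tile was alike in different animals. When each animal's CpG values were correlated with the means of the other animals over the CpGs of the tile, the median correlation over animals ran from 0.66 in chr19:4561001-4562000 to 0.94 in chr2:7108001-7109000 and chr3:124249001-124250000. These are correlations across 8 to 50 CpGs that share reads, with single animals as low as -0.01 (chr10:882001-883000), and are a description. The 300 CpGs were themselves variable between animals, more so than the tile means, with a median SD of a CpG of 6.95 to 11.9 points by tile. Single CpGs varied far more. The largest SDs were 29.3 points at 121730303 on chromosome 1 (0% to 93.0%) and 26.9 points at 4953695 on chromosome 3 (0% to 97.2%).

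For comparison, 7 tiles on the X chromosome met the same rule (of 113 at an intermediate level and 887 with 8 or more rows). They lay lower, at a median level of 35.9% against 51.0% in the 20 tiles, and their highest CpGs reached 84.9% in one tile and 76.5% in another, whose lowest was at 30.2%. Their close neighbours differed by a median of 6.84 points (99 pairs). The 949 tiles on chromosomes 1 to 20 that met every condition but had an SD of 5 points or more differed by 7.82 points (8217 pairs). Within single animals the median step was 16.01 points in the 20 tiles (SD 1.15 over animals), 8.69 points in the X chromosome tiles (SD 1.32) and 9.71 points in the tiles of larger spread (SD 0.577). The step was larger in the 20 tiles in 24 of 24 animals in both comparisons. Tile medians overlapped, since one of the 7 X chromosome tiles had a median step of 21.1 points and the tiles of larger spread ran from 0.303 to 33.3 points. These animals share the same CpGs, so the counts of animals describe how alike the animals are and are not independent tests.

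Close neighbours also seldom had equal values. Pairs within 0.01 point of each other made up a median of 1.99% of pairs per animal in the 20 tiles, 7.07% in the X chromosome tiles and 8.80% in the tiles of larger spread. When each CpG was taken as a deviation from its own mean, neighbours deviated together with a median correlation of 0.288 over animals (0.0455 to 0.505), against 0.511 in the X chromosome tiles and 0.645 in the tiles of larger spread. In the 186 tiles of low spread with fewer middle CpGs it was 0.267, so the low co-deviation was not particular to the 20. The bound on the SD itself limits how far CpGs of a tile can deviate together. The median step in those 186 tiles was 7.73 points, in the 629 tiles at an intermediate level with an SD of 10 points or more 6.63 points, and in the 1272 between these bounds 9.52 points. It was 1.10 points over all tiles with 8 or more rows, here with the X chromosome and scaffolds included, which lay at a median level of 21.4%.

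At 31 to 60 bp the sets lay closer together. The median step was 15.9 points in the 20 tiles (39 pairs), 12.3 points in the X chromosome tiles (9 pairs only), 10.9 points in the tiles of larger spread (1136 pairs) and 15.9 points in the 186 tiles of low spread with fewer middle CpGs (316 pairs). At this distance the 20 tiles thus had no larger step than those 186, and the X chromosome pairs were few. The co-deviation was 0.207 in the 20 tiles, 0.0883 in the X chromosome tiles and 0.442 in the tiles of larger spread. Equal pairs made up a median of 1.28%, 0% and 4.46%. The order of the 20 tiles and the X chromosome tiles was thus turned in both measures.

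**Figure D3:**
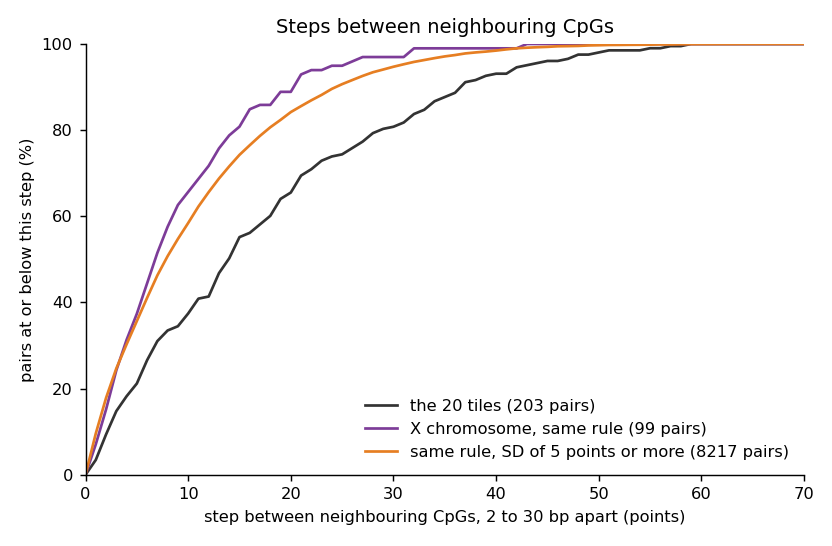
Share of neighbouring CpG pairs 2 to 30 bp apart (%, vertical axis) whose mean levels differ by no more than the step on the horizontal axis (percentage points). Lines stand for the 20 tiles (203 pairs), the 7 X chromosome tiles of the same rule (99 pairs) and the 949 tiles of the same rule but an SD of 5 points or more (8217 pairs); the median step is 13.8, 6.84 and 7.82 points.

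Values on the 2 strands of one CpG, which come from different reads, were close. Rows 1 bp apart occurred 12 times in 11 of the tiles, and their means differed by a median of 3.14 points, and by at most 5 points in 9 of the 12. For example, 4561888 and 4561889 were at 64.0% and 67.4%, and 882987 and 882988 at 54.2% and 55.1%. One pair differed more: in chr14:1834001-1835000, position 1834687 was at 51.6% and 1834688 at 33.6%, with the second lower in 22 of 24 animals. Within a single animal the strands differed more, by a median of 9.79 points. The steps between the means of different CpGs (median 13.8 points) were larger than the differences between the means of the strands.

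In 10 of the 11 tiles with a strand pair, the median step between close CpGs exceeded the difference between the strands. The exception was chr14:1834001-1835000, with a median step of 6.95 points beside a strand difference of 17.9 points. Known imprinted regions were not located in these data, so whether any of the tiles is imprinted was not tested, and they are referred to by their rule, as tiles of stable intermediate methylation. The step between means, its 20-point and 5-point bounds, the likeness of profiles, the strand pairs and the comparison with tiles of larger spread were chosen after the CpG values had been seen.

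The surroundings of the tiles varied. Within 5 kb of 15 of the tiles lay 50 other tiles with at least 3 rows, at levels from 0.644% to 92.1%. Of these, 8 were under 20%, 6 from 20% to 35%, 14 from 35% to 65%, 13 from 65% to 80% and 9 at 80% or more. Directly beside 9 of the tiles lay 11 measured ones, of which 3 were at 35% to 65%. The 14 made up 28% of the neighbours, against 10.1% of all 94313 tiles on chromosomes 1 to 20 with at least 3 rows. Of the 14, 6 lay around chr14:1834001-1835000, and without that tile the share was 8 of 43 (18.6%).

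Examples differ in kind. The tile at chr2:7108001-7109000 had a neighbour directly before it at 52.2% (34 rows, SD 5.06), one 3 kb before it at 69.8% (6 rows), one 4 kb before it at 54.4% (15 rows, SD 5.69) and one 5 kb before it at 60.5% (37 rows, SD 3.94). Around chr14:1834001-1835000 all 7 measured tiles were at 31.9% to 64.5%, and one of them, 2 kb after it, had an SD of 19.6 points. In contrast, unmethylated stretches lay near chr1:110210001-110211000 (1.14% and 0.644%, at 2 and 3 kb after it), chr5:795001-796000 (2.70% and 1.98%, at 3 and 4 kb after it) and chr14:32044001-32045000 (1.88%, 4 kb before it). Beside chr3:34250001-34251000 the adjoining tiles were at 75.8% and 79.9%.

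Of the 20 tiles, 6 (30%) lay within 2 Mb of the first or last measured CpG of their chromosome, against 25.1% of the 2107 tiles at an intermediate level and 16.6% of the 27985 tiles with 8 or more rows. The tiles of stable intermediate methylation were thus close in this to tiles of intermediate level in general. This count was also made after the positions had been seen.

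The question the design asks of each tile is whether testosterone, the diet or both together changed its level. No tile of the 20 was called in any comparison. Calls were made with limma on arcsine square root transformed levels, in one fit of the 4 groups over all tiles with at least 3 rows, with Benjamini-Hochberg adjustment over all of them, at an adjusted p under 0.05 and a difference over 10 points. Across all tiles 0.00793% were called for T against C, 0.00397% for WSD against C, 0.206% for T+WSD against C and 0.0178% for the interaction, so that fewer than 1 call among 20 tiles is the background. The calls for T+WSD against C over all tiles went from 208 to 10 without C 1. For T against WSD and the main effect of testosterone 0% were called, and for the main effect of the diet 0.0129%. With no bound on the difference, at an adjusted p under 0.05 alone, again none of the 20 was called, against 0.00892% of all tiles for T against C, 0.00397% for WSD against C, 0.217% for T+WSD against C, 0.0178% for the interaction and 0.0169% for the main effect of the diet. An SD under 5 points over all animals leaves little room for a difference over 10 points. The rule thus bears on this result.

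At an unadjusted limma p under 0.05, the count was 1 of 20 for T against C (6.72% of all tiles), 0 for WSD against C (7.44%), 3 for T+WSD against C (10.9%), 0 for the interaction (5.61%), 1 for the main effect of the diet (9.42%) and 1 for T against WSD (6.14%). For the main effect of testosterone it was 5 (7.64%), of which 2 were higher and 3 lower with testosterone. That count fell to 1 without C 1, and also to 1 without T 16. Without C 1 the count for T+WSD against C fell to 1 and that for T against C to 0, and without T 16 that for T against WSD rose to 3. Comparisons with C share their control animals.

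The largest differences were between T+WSD and C. In chr6:138642001-138643000 (13 rows, 42.1%), the C animals lay between 33.4% and 41.6% with a median of 40.7%, and the T+WSD animals between 41.6% and 51.1% with a median of 45.2%. Every T+WSD animal lay above every C animal, the closest being at 41.60% and 41.59%. T was between 35.7% and 50.8% and WSD between 36.2% and 48.4%, so both overlapped C and T+WSD. T+WSD was higher than C by 6.81 points (39.1% ± 3.19 and 45.9% ± 3.99, SD, n = 6 each, limma with Benjamini-Hochberg adjustment, adjusted p = 0.322), which did not pass the test.

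In chr3:34250001-34251000 T+WSD was lower than C, at 38.1% ± 4.12 against 44.8% ± 2.18 (SD, n = 6 each), a difference of -6.64 points (limma with Benjamini-Hochberg adjustment, adjusted p = 0.283). The same tile had the smallest p for WSD against C, at -3.64 points (limma, adjusted p = 0.800). The second smallest there was chr1:121730001-121731000 at 3.38 points (limma, adjusted p = 0.838), with 5 animals in each of C and WSD. None of these differences passed the test.

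For T against C the tile with the smallest p was chr3:37226001-37227000, at 56.0% ± 5.43 against 61.4% ± 4.29 (SD, n = 6 each), a difference of -5.44 points (limma, adjusted p = 0.733). T 18, at 45.1%, was far below the other T animals, which lay between 56.5% and 59.7%. The next was chr14:59508001-59509000 at 5.38 points (limma, adjusted p = 0.769), and this tile also led the interaction at -6.39 points (limma, adjusted p = 0.920), followed by chr3:4953001-4954000 at -5.71 points (limma, adjusted p = 0.933).

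Over the 20 tiles the median difference was -0.89 points for T against C, 0.0854 points for WSD against C and -0.70 points for T+WSD against C. In size the median difference was 2.44, 1.83 and 2.67 points, against 1.56, 1.58 and 1.72 points over all tiles tested. For the interaction it was 1.59 points, against 2.15 points over all tiles. Most of the tiles tested were not at an intermediate level, so these medians compare unlike levels.

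**Figure D4:**
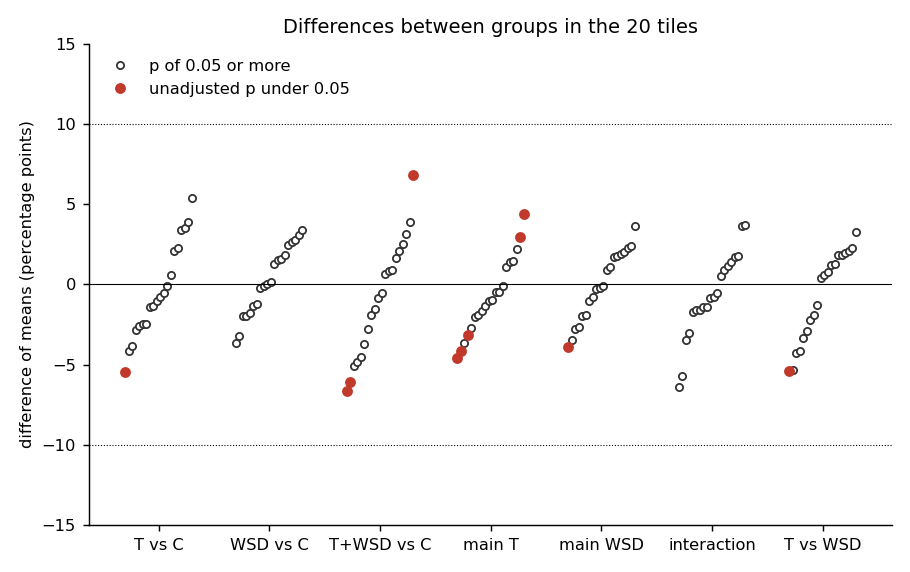
Difference of means (percentage points, vertical axis) of each of the 20 tiles in each comparison (horizontal axis), points ordered by size within a comparison. Filled points had an unadjusted limma p under 0.05 and dotted lines mark 10 points; the differences ran from -6.64 to 6.81 points and no point reached the lines.

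None of the 300 CpGs in the tiles had a limma adjusted p under 0.05 in any of the comparisons, where 0.00594% of all CpGs did for T against C, 0.00618% for WSD against C, 0.00761% for T+WSD against C, 0.0181% for the interaction and 0.000594% for the main effect of the diet. At an unadjusted p under 0.05, there were 22 for T against C (7.33% of the 300, against 5.58% of all CpGs), 11 for WSD against C (3.67% against 6.28%), 21 for T+WSD against C (7% against 7.61%) and 16 for the interaction (5.33% against 5.42%). There were 25 for the main effect of testosterone (8.33% against 5.89%), 18 for that of the diet (6% against 7.07%) and 25 for T against WSD (8.33% against 5.7%). These counts are not independent, since CpGs of a tile share reads.

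Whether low spread in some animals carried over to others was examined by applying the rule to the 6 animals of one group and measuring the SD in the other 18. Chosen in C, 97 tiles met the rule, and in the other 18 animals 13 of them had an SD under 5 points, with a median SD of 7.23 points (3.36 to 16.01). The level carried over more often than the spread, since 89 of the 97 were at 35% to 65% in the others. Chosen in T, 8 of 107 tiles had an SD under 5 points in the others, chosen in WSD 8 of 112, and chosen in T+WSD 27 of 200. Among all tiles that met the bounds other than the SD in the choosing group, the chosen ones included, the share with an SD under 5 points in the other 18 animals was 4.13% for C (34 of 823), 2.93% for T, 3.2% for WSD and 3.92% for T+WSD, against 13.4%, 7.48%, 7.14% and 13.5% of the chosen tiles. Chosen in animals 1 to 12, 13 of 42 did so in animals 13 to 24, and in the reverse direction 11 of 51, against 6.24% and 5.04% of all tiles within the other bounds. These shares were computed after the carry-over counts had been seen.

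Within single groups, the rule was met by 11 of the 20 tiles for C, 7 for T, 8 for WSD and 14 for T+WSD. The SD alone was under 5 points in 15 of the 20 for C, 15 for T, 12 for WSD and 17 for T+WSD, so part of the others missed the bounds on level or on single CpGs. Their group SDs reached 6.65 points for C, 6.25 for T, 6.15 for WSD and 6.06 for T+WSD. The 20 tiles were chosen by their SD over these same animals. Low group SDs thus follow in part from the rule, and these counts are a description.

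**Figure D5:**
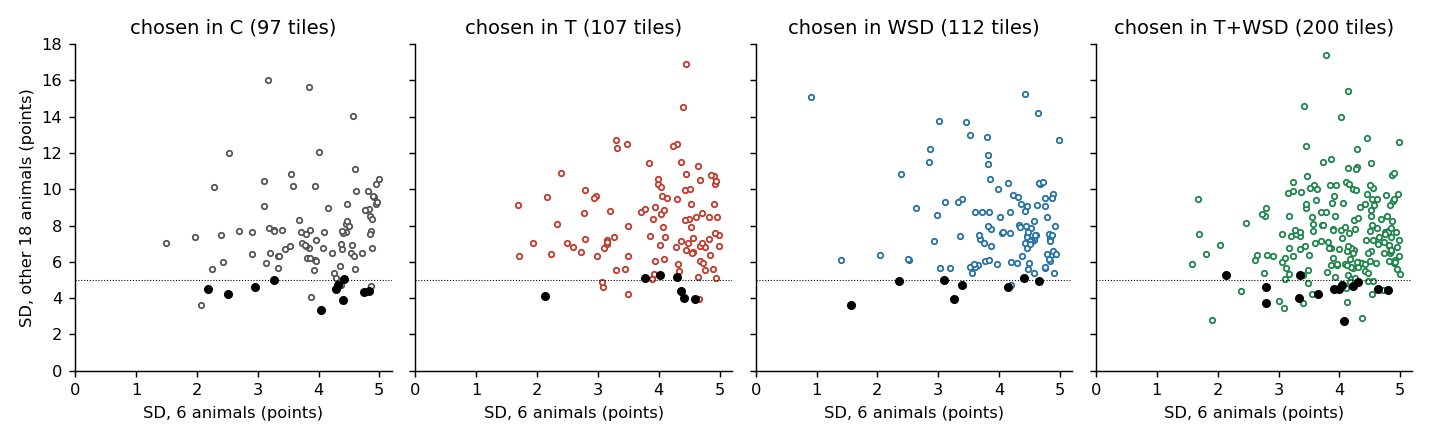
SD of the tile level over the 18 other animals (points, vertical axis) against the SD over the 6 animals of the group in which the rule was applied (points, horizontal axis), in 1 panel per group (C, T, WSD, T+WSD). Each point is 1 tile, filled where it is one of the 20, and the dotted line marks 5 points; 13 of 97, 8 of 107, 8 of 112 and 27 of 200 tiles fell under it.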

How the data were processed

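RRBS libraries were made from omental WAT of 24 female rhesus macaques. The authors checked reads with FastQC 0.11.5, trimmed them with Trim Galore 0.4.2 and aligned them to rheMac8 with Bismark 0.16.1, per the submitters' processing notes and the study's methods. The values they deposited are the percent of methylated reads at each of 841143 CpG rows in each animal, kept by them where at least 4 of the 6 animals of each group had at least 10 reads; every row had a value in at least 4 animals of each group. Read counts were not in the table used here. All columns were matched to an animal by title.

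From these, tile means per animal were computed as the mean of the CpGs with a value (Python 3.11.15, pandas 2.3.3). Groups were compared with limma 3.58.1 (R 4.3.3) on arcsine square root transformed levels, Benjamini-Hochberg adjusted over all tiles with at least 3 rows, or all CpGs, on all chromosomes and scaffolds; all adjusted p-values come from this fit, which was tested on simulated data. Each animal was 1 replicate. The tiles, the comparison sets and the lists were chosen with earlier results of these data known. Regions named are the tiles with most rows (5, and a tie), the 2 smallest p-values for T, WSD and T+WSD against C and the interaction, and tiles beside each bound; the others named as examples were chosen after their values were seen. The planned list of imprinted genes, and GC content, CpG density and a ZFP57 motif, were not analysed here.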

Additional observations from a re-analysis of the deposited data

Results flagged for a closer look

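An animal was flagged where its gap to the nearest animal of its group was a large share of the group's whole range. This held in 8 of the 80 combinations of tile and group, with shares of 0.643 to 0.780. Chance alone would give about 4, but the tiles were chosen by their spread and share animals, so the count is no test. Some wider gaps were not flagged, such as C 1 in chr3:124249001-124250000, at 67.7% beside 48.0% to 56.0%. In chr1:1515001-1516000, WSD 21 was at 60.9%, with the other WSD animals between 46.7% and 51.0%. In chr3:4953001-4954000, WSD 24 was at 39.5%, with the others between 47.4% and 50.5%. This is the tile whose spread rose to 7.79 points when missing CpGs were accounted for. Its CpGs from 4953349 to 4953594 had no value in 3 animals, WSD 24 among them. The value of WSD 24 is thus a mean over fewer CpGs than those of the other WSD animals. Its CpGs with a value, from 4953623 to 4953752, had means over animals of 42.9% to 82.9%. The CpGs it lacked had means of 28.9% to 48.5%. Its 39.5% thus lay below the mean of each CpG it was taken from. In chr3:34250001-34251000, C 2 was at 40.6%, with the others between 44.7% and 46.9%. In chr3:37226001-37227000, C 4 was at 53.2% beside 61.4% to 65.6%, and T 18 at 45.1% beside 56.5% to 59.7%. In chr3:124249001-124250000, T+WSD 10 was at 47.8% beside 52.4% to 54.6%. In chr14:1834001-1835000, C 1 was at 44.5% beside 36.6% to 39.0%, and T+WSD 10 at 32.8% beside 38.0% to 40.2%. Of the 8 animal values, 2 fell to T+WSD 10.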

How the results depend on the processing

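The number of tiles follows the bounds. It was 4 with an SD under 4 points, 71 under 6 points, 13 at a level from 40% to 60%, 10 with at least 12 rows, 7 with at least 90% of CpGs at a middle level, and 12 (10 of them among the 20) when only CpGs with a value in all 24 animals were used. It was 16 with strand rows merged, 25 with tiles shifted by 500 bp (overlapping 14 of the 20), and 18 (17 shared) with the spread taken from CpG deviations, an alternative added after the data were seen. Without each animal in turn it was 19 to 26, and 14 of the 20 were kept in all 24 cases; chr14:32044001-32045000 was kept in 7. Chosen in T+WSD, 200 tiles met the rule against 97 in C, and the count with an SD under 5 points in the other animals was 13 for C, 8 for T, 8 for WSD and 27 for T+WSD; the cause was not tested. The median step between neighbouring CpGs was 13.7 points without the tile that lacks animals and 13.4 points as a median of tile medians; within an animal it was 16.8 points for pairs 31 to 60 bp apart.

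No tile of the 20 was called by adjusted p with untransformed rates, the arcsine without the square root (added later), only tiles with at least 8 rows, without C 1 or without T 16, nor with only the groups compared, which was run for the comparisons between pairs of groups. None of their CpGs was called with the arcsine without the square root, with only complete CpGs, without C 1 or without T 16. Those were the only animals left out of the contrasts. The background moved: tiles called for T+WSD against C went from 208 to 10 without C 1, to 33 with only the groups compared, to 98 with at least 8 rows, and to 294 without T 16. No paired analysis was possible because the groups share no replicate numbers. Without read counts, the counting error behind each percentage is unknown beyond what the coverage minimum sets.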
